A study of Homo sapiens with 4 samples.

Results

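The 344 abundant long intergenic noncoding RNA (lincRNA) genes of the glioblastoma lines U87 and U251 are described here. They were chosen from 58735 genes by annotation and level, as lincRNA genes of at least 200 bases whose FPKM averaged 1 or more across the 4 libraries. FPKM is the number of fragments per kilobase of gene, scaled by library size. Of 7558 lincRNA genes of that length, 3348 had a read in some library and 353 reached the level, of which 9 were left out by name (7 snoRNA hosts called SNHG, EPB41L4A-AS1 and MEG3). U251 and U87 are established human glioblastoma lines. Each was sequenced as a Control group library and as a library of cells given brusatol (Bru) at its IC50 for 48 h. Bru, a plant quassinoid known as an inhibitor of NRF2 signaling and of protein synthesis, was dissolved in DMSO, and the vehicle of the sequenced Control cells is not given in the sources used here. Each condition has 1 library, so no difference between single libraries has a replicate error.

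A lincRNA is a transcript from its own gene that is not read as a protein. Some build nuclear bodies, others bind proteins in the cytoplasm or carry a microRNA (miRNA) in their exons or introns, and for many no role is known. They are known for levels that are lower and more restricted to 1 cell type than those of mRNAs, and many start next to a protein-coding gene on the opposite strand.

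The libraries held 17083896 to 21453561 reads on genes, recovered from the FPKM, and the 344 genes took 0.441%, 0.504%, 0.514% and 0.586% of them in U251 Control, U251 Bru, U87 Control and U87 Bru. Mitochondrial genes took 2.43% to 4.06%. The glioma markers VIM and CD44 were high in each library, at 606 FPKM or more for VIM, whereas SOX2 (129 and 91.2 FPKM in U251, 0 and 0.0457 in U87) and NES (125 and 50.6 in U251, 1.46 and 0.568 in U87) separated the lines. S100B was low in all 4 libraries. GFAP was low but higher in U251 (2.42 and 1.08, against 0.215 and 0.147 in U87). FABP7 was also higher in U251 (8.27 and 2.04, against 0.0203 and 0) and OLIG2 in U87 (0.627 and 1.04, against 0.0284 and 0.0644). Leukocyte and endothelial markers summed to at most 0.67 and 0.588 FPKM, with CD3E at 0. The 4 epithelial markers summed to 12.5 and 16.4 FPKM in U251 and 2.59 and 2.22 in U87, mostly KRT18 and KRT8, with CDH1 at 0, and their part in the line differences was not tested.

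The level of the lincRNA genes was low, with a median mean FPKM of 2.15, and 285 of 344 were under 5. The just-included genes AP000894.4, AC010969.2 and LINC02300 had mean FPKM of 1.013, 1.018 and 1.021, and AC069234.5, MIR4458HG and LINC02043 were just outside at 0.9988, 0.9986 and 0.996. The genes were also short, at a median of 1116.5 bases of exon against 5138 for the protein-coding genes at the same level. As a result a median of 220 reads over the 4 libraries stood behind a lincRNA gene, against 3220 behind a protein-coding gene, and 90 lincRNA genes had under 100. The label was checked against positions. Although called intergenic, 65 of 344 overlapped a protein-coding gene and 98 overlapped another expressed gene, by gene boundaries that include introns. Reads cannot be told apart where exons overlap and strand was not used. In addition, 22 genes shared over 50% of their 32-base stretches with transcripts of other genes, so that reads could be split between copies. The 1 gene on chromosome Y is counted without its values, and 343 are plotted.

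NORAD, MALAT1 and NEAT1 took 53% to 60.2% of the reads of the 344 genes. NORAD (chr20:36045622-36050960, 1 exon), a cytoplasmic RNA known to hold Pumilio proteins, was at 92.5 FPKM (Control) and 82.2 (Bru) in U251 and at 137 (Control) and 141 (Bru) in U87. Both U87 libraries were above both U251 libraries, by 1.49-fold in the Control pair and 1.71-fold in the Bru pair. The Pumilio motif TGTANATA occurred 15 times in its transcript of 5339 bases, the most of any of the 344, with FTX next at 7. A stretch of 230 bases, from base 1229 to base 1458, is shown with 3 such motifs in capitals because these repeats are what NORAD is known for.
NORAD: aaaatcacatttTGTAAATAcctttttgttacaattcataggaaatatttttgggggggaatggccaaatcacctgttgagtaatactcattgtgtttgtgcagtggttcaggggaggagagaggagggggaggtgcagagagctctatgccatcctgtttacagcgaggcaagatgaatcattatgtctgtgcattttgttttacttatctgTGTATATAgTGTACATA
Copies of NORAD sequence exist elsewhere, and 55.2% of its 32-base stretches occurred in transcripts of other genes. Reads could thus be split with those genes, and the effect on its level was not tested.

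MALAT1 (chr11:65497688-65506516), the RNA of nuclear speckles, was at 59.0 FPKM (Control) and 67.4 (Bru) in U251 and at 109 (Control) and 105 (Bru) in U87. Its U87 libraries were again above its U251 libraries, and Bru libraries differed from their Controls by 0.19 in U251 and -0.06 in U87 on the log2 scale. NEAT1 (chr11:65422774-65445540), the scaffold of paraspeckles, was at 60.5 FPKM (Control) and 78.8 (Bru) in U251 and at 54.7 (Control) and 78.6 (Bru) in U87. NEAT1 was higher with Bru in both lines, with a log2 ratio of 0.38 (95% counting interval 0.36 to 0.40) in U251 and 0.52 (0.50 to 0.55) in U87, which is below the cutoff of 1. Intervals were set on the reads without the 0.1 FPKM that is added before the log2. Over both lines the Bru term of NEAT1 in limma was 0.45 ± 0.17 (SE, n = 4 libraries) with an adjusted p of 0.313. Among 16 paraspeckle proteins, none passed the cutoff in either line, and U251 had a median of -0.36 and U87 of -0.01 on the log2 scale, beside -0.03 and -0.04 for all genes tested. The 14 speckle proteins had medians of -0.07 and -0.03 and no gene past the cutoff.

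The RefSeq promoter of MALAT1 (GRCh38.p14, chr11:65497488-65497787, plus strand, from 250 bases before to 50 after the start) is shown because MALAT1 is the nuclear body lincRNA with an entry. Capitals mark the antioxidant response element (ARE) core TGACNNNGC and the GC box GGGCGG on either strand.
MALAT1: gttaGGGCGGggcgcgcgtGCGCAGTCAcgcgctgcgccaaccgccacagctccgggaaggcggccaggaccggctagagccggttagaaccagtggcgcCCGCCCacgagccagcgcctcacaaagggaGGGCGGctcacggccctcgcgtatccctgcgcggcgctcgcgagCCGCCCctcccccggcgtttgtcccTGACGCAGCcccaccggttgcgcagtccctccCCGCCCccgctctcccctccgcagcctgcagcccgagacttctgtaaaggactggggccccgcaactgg
It held 2 ARE cores and 5 GC boxes. Over 35116 RefSeq promoters of this length, 13.3% held the ARE core and 45.0% the GC box. Among the 84 of the 344 genes whose RefSeq start was within 1000 bases of the start in the files, the shares were 21.4% and 56.0%. AP-1 sites (TGANTCA) were in 17.9% of these promoters and 7.7% of all, E-boxes (CACGTG) in 9.5% and 7.3%, CCAAT in 46.4% and 34.6%, and TATAAA in 9.5% and 11.5%, where the median number of CpG was 20 and 14. These are matches of letters and not sites of binding.

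The next members by level were marked by a difference between the lines. LINC00973 was at 29.4, 45.4, 143 and 149 FPKM in U251 Control, U251 Bru, U87 Control and U87 Bru, so both U87 libraries were more than 3-fold above both U251 libraries. LINC01444, on chromosome 18, was at 0.143, 0.0404, 52.3 and 41.2 FPKM, with 4, 1, 1263 and 958 reads. It was thus close to absent from U251 and among the most abundant lincRNAs of U87. AC003092.1, on chromosome 7, was at 0.179, 1.17, 36.7 and 43.3 FPKM. AC002401.4, which starts near PDK2, was at 5.56, 4.26, 32.6 and 17.4 FPKM, and AP005233.2 near MYEOV at 10.6, 4.5, 25 and 20.2. LINC00461 went the other way, as given with the miRNA hosts. The plot of the level of 20 lincRNA genes shows these patterns together.

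**Figure D1:**
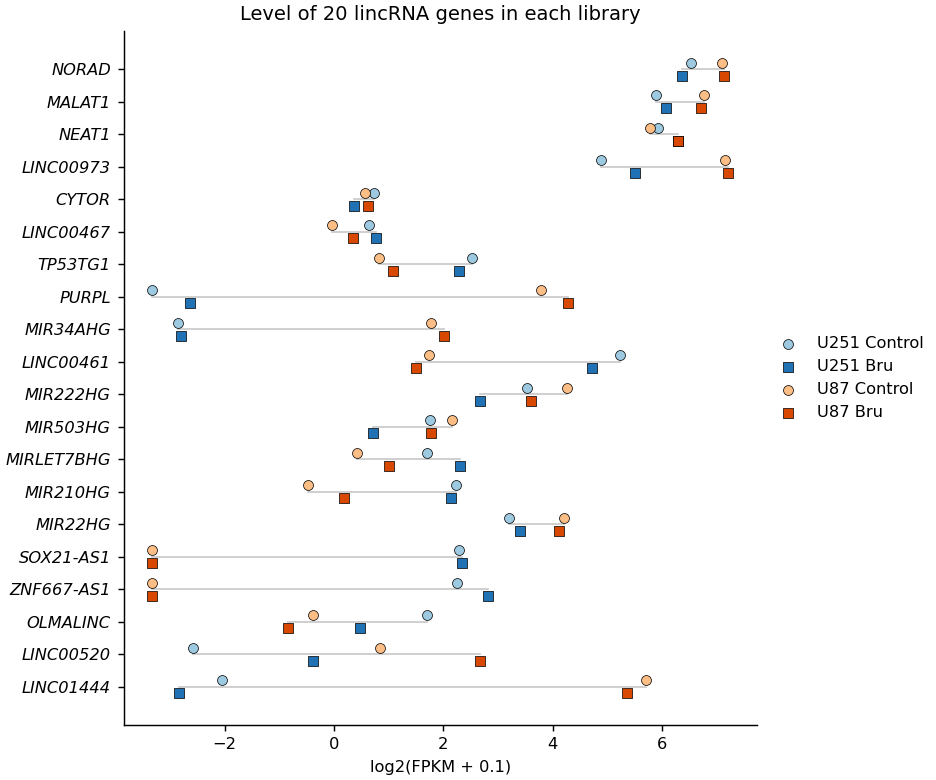
Level of 20 lincRNA genes on a log2(FPKM + 0.1) axis, with 1 point per library (circles Control, squares Bru, blue U251, orange U87) and a grey line over the range. NORAD, MALAT1 and NEAT1 lie within a narrow range at the top of the scale, whereas PURPL, MIR34AHG and LINC01444 lie far apart between U251 and U87, and SOX21-AS1 and ZNF667-AS1 have 0 reads in U87.

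The comparison of U87 with U251 asks in which line a lincRNA is used. In the Control pair, 115 of 344 genes were higher in U87 by over 1 on the log2 scale and 70 were lower, that is 53.8% beside 30.4% of the 12949 genes tested (14.5% higher and 16.0% lower). In the Bru pair, which shares no library with the Control pair, 111 were higher and 74 lower, 53.8% again, beside 29.2% (14.3% and 15.0%). In both pairs, 92 were higher in U87 (26.7% beside 10.8%) and 57 were lower (16.6% beside 11.6%), and 2, AC008608.2 and AP006621.2, passed in opposite directions (0.581% beside 0.348%). The level rule makes such differences more likely for genes that reach the level in 1 line, since 70 genes were at or above 1 FPKM in both U87 libraries and under 1 in both U251 libraries, 51 were the reverse, and 153 were at or above 1 in all 4. Shares of all genes tested at these levels are not given. Read depth also moved with the shares past the cutoff. For genes with under 100 reads in all, 53.3% of the lincRNA genes and 55.3% of all genes passed in the Control pair, whereas for 300 to 999 reads it was 61.9% and 44.6%, and for 1000 or more 44.2% and 23.8%. Antisense genes, another noncoding class, passed in 48.1% and 39.6% of 480 genes in the Control and Bru pairs, and protein-coding genes in 27.5% and 26.7% of 10851.

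The line ratios were alike in the Control and Bru pairs, with a Spearman rho of 0.888 over the 344 genes and 0.841 over all genes tested, given as a description across genes. The median line ratio was 0.34 and 0.35, beside -0.01 and -0.02. In the additive limma fit on log2(FPKM + 0.1), which has 1 residual degree of freedom, the line term passed an adjusted p of 0.05 for 122 members higher in U87 and 79 lower (35.5% and 23.0%, beside 23.6% and 24.6% of all genes). With 1 culture per condition known from the labels, these p-values measure the spread between these libraries, in which a Bru response that differs between lines counts as error. Members that reach 1 FPKM in both libraries of 1 line only (70 in U87, 51 in U251) were also fitted. They reached the level through the line where they are high, so these counts are a description and not a test.

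**Figure D2:**
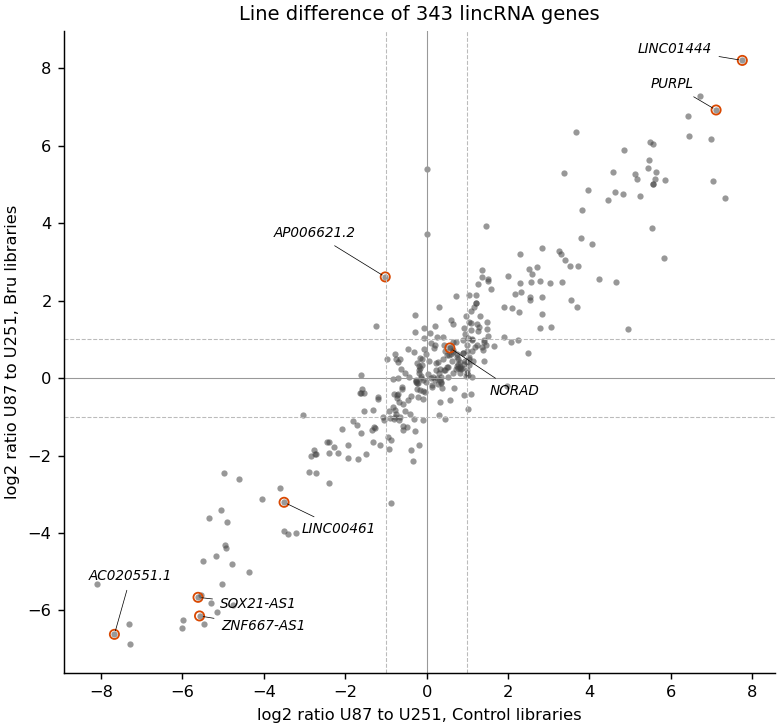
Log2 ratio of U87 to U251 for 343 lincRNA genes, in the Control libraries (horizontal) and in the Bru libraries (vertical), with dashed lines at -1 and 1. The points follow the diagonal from ZNF667-AS1 and AC020551.1 at the lower left to PURPL and LINC01444 at the upper right, and AP006621.2 lies off it.

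The genes most restricted to U87 were LINC01444, PURPL, AC108517.1, AC063923.2 and AC079949.1. AC108517.1, AC063923.2 and AC079949.1 had 0 reads in both U251 libraries, against 62 and 88, 142 and 173, and 139 and 76 reads in U87 Control and U87 Bru. Set against a floor of 3 reads per library, they were at least 24-fold, 54.9-fold and 53.8-fold higher in U87 in the Control pair. The genes most restricted to U251 were AC020551.1, LINC02506, AL157937.1, AC005150.1 and AL358117.1, all with 0 reads in both U87 libraries. AC020551.1 had 229 and 97 reads in U251 Control and U251 Bru, LINC02506 had 239 and 156, and AL157937.1 had 147 and 66, which is at least 65.8-fold, 68.6-fold and 42.2-fold higher in U251 in the Control pair. All of these genes except AC063923.2 were over 50 kb from a protein-coding gene. In all, 16 genes had 0 reads in both U251 libraries and 19 in both U87 libraries, which allows up to 3 reads each. Shares over all genes tested are not given, so these counts do not set lincRNA genes apart from others.

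PURPL and TP53TG1 are members linked to p53, as is NEAT1, whose lines differed by -0.15 in the Control pair and 0.00 in the Bru pair, and they are given with the miRNA host MIR34AHG. PURPL (chr5:27472292-27496401), known as a p53-induced RNA that lowers p53 level, had 0, 3, 654 and 893 reads, or 0, 0.0614, 13.7 and 19.4 FPKM, in U251 Control, U251 Bru, U87 Control and U87 Bru. It was at least 253-fold higher in U87 in the Control pair, and in the Bru pair its log2 ratio on reads was 8.31 (counting interval 6.76 to 10.59). MIR34AHG, the host gene of the p53-induced miR-34a, had 7, 7, 526 and 593 reads, or 0.0384, 0.0434, 3.35 and 3.91 FPKM. Both genes were therefore near the floor in U251 and well above it in U87, the line through which they reached the level, so no test is given. TP53TG1, a gene named as a p53 target, went the other way, at 5.69, 4.8, 1.68 and 2.02 FPKM.

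The promoter of PURPL (RefSeq, GRCh38.p14, chr5:27472042-27472341, plus strand) is shown because a search made after the values were seen found the p53 response element in it, that is a pair of decamers of the known consensus with up to 13 bases between. Capitals mark the element, from base -127 to base -108 from the start, with 0 bases between the decamers.
PURPL: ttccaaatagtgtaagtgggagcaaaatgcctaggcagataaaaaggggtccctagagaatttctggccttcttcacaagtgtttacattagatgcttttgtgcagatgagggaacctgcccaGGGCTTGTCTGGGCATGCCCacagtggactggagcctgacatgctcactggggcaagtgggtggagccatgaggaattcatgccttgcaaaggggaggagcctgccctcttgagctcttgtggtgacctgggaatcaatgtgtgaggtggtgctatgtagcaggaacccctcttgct
Of 35116 RefSeq promoters, 10 held such an element (0.0285%), and PURPL was the 1 of the 84 lincRNA promoters that did. MIR34AHG and NEAT1 were not among these 84. The RefSeq start of MIR34AHG was 16568 bases from the gene start used here, and NEAT1 had no promoter entry. This is a match of letters, and no binding was measured.

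Members that carry a miRNA were described next, since their RNA is also the precursor of a regulator of many mRNAs. The seed, bases 2 to 8 of a mature miRNA, pairs with its targets and is in capitals. The sequences are from RefSeq, and only the host RNA was measured here.
hsa-miR-9-5p: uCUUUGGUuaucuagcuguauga
hsa-miR-221-3p: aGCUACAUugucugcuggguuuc
hsa-miR-222-3p: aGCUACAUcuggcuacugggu
hsa-miR-503-5p: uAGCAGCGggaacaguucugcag
hsa-let-7a-5p: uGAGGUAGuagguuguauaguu
hsa-let-7b-5p: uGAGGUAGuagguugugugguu
hsa-miR-34a-5p: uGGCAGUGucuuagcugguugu
hsa-miR-210-3p: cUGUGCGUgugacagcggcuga
miR-221 and miR-222 share the seed GCUACAU, and let-7a and let-7b share GAGGUAG.

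LINC00461, a brain RNA whose exon holds the miR-9-2 hairpin (chr5:88666853-88666939, minus strand), was at 37.5, 26.2, 3.22 and 2.75 FPKM in U251 Control, U251 Bru, U87 Control and U87 Bru. Both U251 libraries were above both U87 libraries, by 11.3-fold in the Control pair and 9.24-fold in the Bru pair. The adjusted p of the line term in limma was 2.8e-05, which measures the spread between these libraries and not between cultures. With Bru LINC00461 was lower by less than the cutoff, U251 by -0.52 and U87 by -0.22 on the log2 scale. MIR222HG, whose intron holds miR-221 and miR-222, known to act on the cell cycle inhibitor p27, was at 11.5, 6.24, 19.1 and 12.1 FPKM. Each Bru library was below its Control, by a log2 ratio of -0.88 (counting interval -1.08 to -0.69) in U251 and -0.65 (-0.81 to -0.51) in U87, and the limma Bru term was -0.77 ± 0.17 (SE, n = 4 libraries) with an adjusted p of 0.185. MIR503HG was at 3.3, 1.54, 4.39 and 3.32 FPKM, past the cutoff in U251 (-1.05) and not in U87 (-0.39).

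MIRLET7BHG, whose exons hold let-7a-3 and let-7b, known as brakes on growth genes such as LIN28B and HMGA2, was at 3.15, 4.82, 1.25 and 1.92 FPKM. Each Bru library was above its Control by about the same ratio, 0.60 (0.42 to 0.81) in U251 and 0.58 (0.29 to 0.95) in U87, and U251 was above U87 in both pairs. MIR210HG, the host of the hypoxia miRNA miR-210, was at 4.6, 4.32, 0.62 and 1.04 FPKM and so higher in U251, with Bru ratios of -0.09 and 0.66. MIR155HG was at 0.894, 1.89, 1.59 and 2.26 FPKM, with 30 to 63 reads per library, just at the cutoff in U251 (1.0) and at 0.48 in U87. MIR22HG differed little with Bru (0.20 and -0.09), as did FTX of the X-inactivation centre (-0.27 and -0.18). MIR4435-2HG and CYTOR, which share sequence (53.5% of the stretches of MIR4435-2HG occur in CYTOR, and 22.9% of those of CYTOR in MIR4435-2HG) and hold the same miR-4435, had Bru ratios of -0.51 and -0.36 in U251 and 0.18 and 0.06 in U87. LINC00467, known for a micropeptide, was between 0.871 and 1.6 FPKM. The 12 genes of miRNA processing had no gene past the cutoff under Bru, where all genes passed in 8.80% and 3.34%. Of the other listed RNAs, RMRP, RPPH1 and H19 are listed at 0 in the files, and TERC had a mean FPKM of 0.133.

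The Bru comparison asks which lincRNAs respond to the drug. In U251, 32 of 344 genes were higher by over 1 on the log2 scale and 36 were lower, that is 19.8% beside 8.80% of all genes tested (3.36% higher and 5.44% lower). In U87, 14 were higher and 10 lower, 6.98% beside 3.34% (1.92% and 1.41%). The medians were 0.06 and 0.00. Genes that reached the level through 1 library are more likely to pass, so these counts are a description and not a test. Depth moved with these counts, and 52 of the 68 genes past the cutoff in U251 and 22 of the 24 in U87 had under 100 reads in the pair. With 100 reads or more in the pair, 6 were higher and 10 lower of 150 in U251, 10.7% beside 6.34% of all genes over this minimum. In U87, 2 of 164 passed, 1.22% beside 0.771%. The minimum does not match the depth above it. By reads over the 4 libraries, members passed less often than all genes under 100 reads (28.9% beside 33.7% in U251, 18.9% beside 32.2% in U87), and more often at 300 to 999 reads in U251 (18.6% beside 10.2%). At 1000 reads or more it was 4.65% beside 5.59% in U251 and 4.65% beside 0.586% in U87. This U87 share was 1 gene higher and 1 lower of 43, both with under 100 reads in the U87 pair. U87 had 3.51% beside 6.85% at 100 to 299 reads and 1.03% beside 1.77% at 300 to 999. With the counting interval also excluding 0, 23 were higher and 30 lower in U251 (2.71% and 4.61% of all genes) and 9 and 6 in U87 (0.904% and 0.811%).

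**Figure D3:**
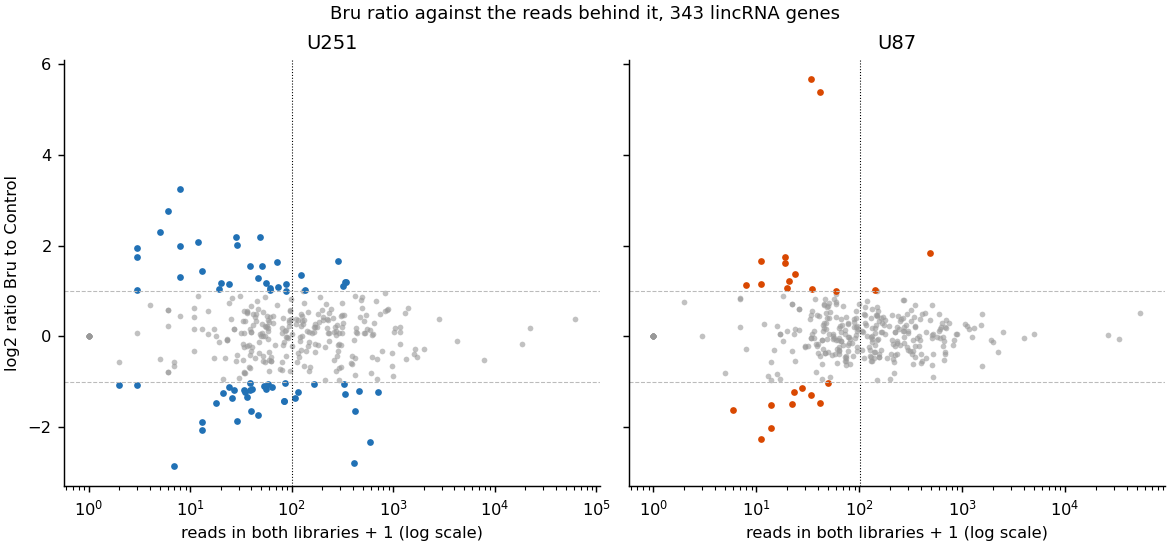
Log2 ratio of Bru to Control against the reads in both libraries of the line plus 1 (log scale) for 343 lincRNA genes, with U251 left and U87 right. Colored points lie past the cutoff of 1, drawn as dashed lines, and most of them lie left of the dotted line at 100 reads, with 2 genes to its right in U87.

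The limma Bru term, which asks for a response shared by both lines, passed an adjusted p of 0.05 for 0 members and for 0.0% of all genes. At an unadjusted p under 0.05, 22 members were higher and 19 lower (6.40% and 5.52%, beside 5.32% and 8.85% of all genes). The Bru ratios of the lines, which share no library, had a Spearman rho of 0.162 over the 344 genes and 0.398 over all genes tested. The difference of the ratios, U87 minus U251, was above 1 in 40 genes and below -1 in 29 (11.6% and 8.43%, beside 5.11% and 3.37%), and with 1 library per group it was not tested.

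Both lines passed the cutoff together in 8 genes. LINC00520, LINC01186, AC026250.1, AC026316.2 and AC078788.2 were higher in both (1.45% beside 0.456%), AC091057.4 and AC008946.1 were lower in both (0.581% beside 0.517%), and AP006621.2 was lower in U251 and higher in U87 (0.291% beside 0.417%). LINC00520 (chr14:55781132-55796731) had 5, 43, 106 and 379 reads, or 0.0685, 0.666, 1.68 and 6.25 FPKM, in U251 Control, U251 Bru, U87 Control and U87 Bru. Its Bru library was above its Control in each line, at a log2 ratio of 2.19 in U251 and 1.83 (1.58 to 2.22) in U87, and U87 was above U251 in both pairs. Its limma Bru term was 2.01 ± 0.36 (SE, n = 4 libraries) with an adjusted p of 0.131. AC026250.1, near SWAP70, had 16, 54, 46 and 95 reads and ratios of 1.63 and 1.03. LINC00520 and AC026250.1 were also the 2 genes past the cutoff in U87 with 100 reads or more.

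The other genes of this set rested on few reads. LINC01186 had 10, 28, 4 and 14 reads, AC026316.2 had 2, 9, 3 and 7, AC008946.1 had 19, 7, 16 and 5, and AC078788.2 had 0, 2, 0 and 33. AC091057.4, which overlaps another gene on its strand, had 63, 20, 31 and 10 reads and ratios of -1.42 and -1.47, so each Bru library held about 1 read for 3 in its Control. Its adjusted p for the Bru term in limma was 0.129, the lowest of the 344 for that term. The counting intervals of 3 of the 5 higher genes and 1 of the 2 lower genes excluded 0 in both lines. The promoter of LINC01186 (RefSeq, GRCh38.p14, chrX:46327625-46327924, minus strand) is the promoter of this set with an entry, and the capitals mark its 1 ARE core.
LINC01186: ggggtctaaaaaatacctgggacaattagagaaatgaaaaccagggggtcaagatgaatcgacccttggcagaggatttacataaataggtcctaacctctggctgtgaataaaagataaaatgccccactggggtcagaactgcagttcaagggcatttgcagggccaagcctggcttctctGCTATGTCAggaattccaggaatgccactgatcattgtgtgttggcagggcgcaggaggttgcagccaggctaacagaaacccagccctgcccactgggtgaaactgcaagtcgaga

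**Figure D4:**
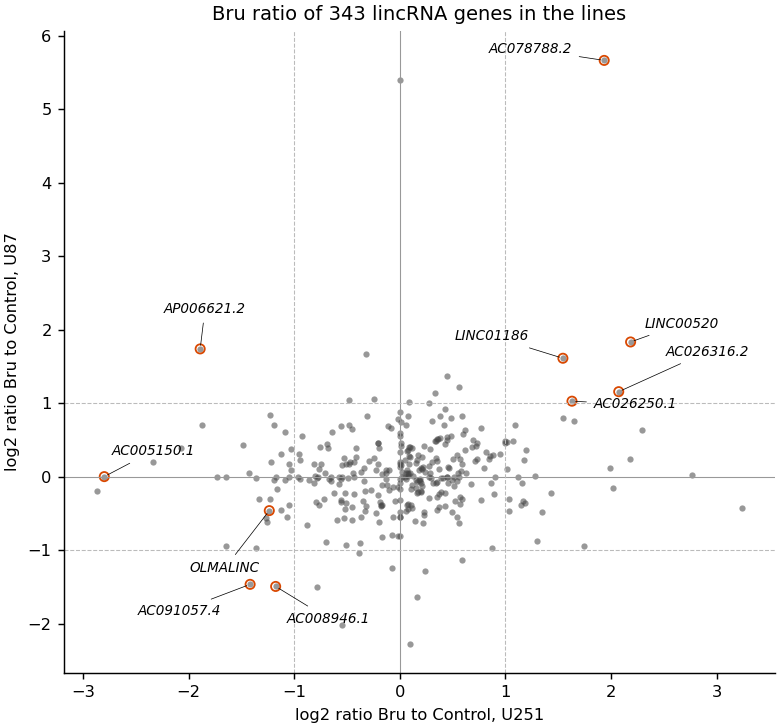
Log2 ratio of Bru to Control for 343 lincRNA genes in U251 (horizontal) and U87 (vertical), with dashed lines at -1 and 1. LINC00520, LINC01186, AC026250.1, AC026316.2 and AC078788.2 lie in the upper right corner, AC091057.4 and AC008946.1 in the lower left, and AC005150.1 and OLMALINC lie out along the U251 axis.

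The counting interval excluded 0 in the same direction in both lines for 19 genes that were higher with Bru (5.52% beside 10.1% of all genes) and 13 that were lower (3.78% beside 18.0%), whatever the size of the ratio. NEAT1, MIRLET7BHG, LINC00520 and PVT1 (0.34 and 0.49) are among the former. LINC00461, FTX, MIR222HG, LINC01551, OLMALINC and CRNDE (-0.76 and -0.39) are among the latter. In 9 genes the intervals excluded 0 in opposite directions (2.62% beside 5.14%), among them NORAD (-0.17 and 0.04) and MALAT1 (0.19 and -0.06), whose ratios were near 0. The interval narrows with reads, of which a lincRNA gene had a median of 220 over the 4 libraries and a protein-coding gene 3220. No share at equal depth is given, so these shares do not compare the response of lincRNA genes with that of all genes.

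In U251 alone, the 5 highest Bru ratios belonged to AC003092.2, AJ011932.1, AC090192.2, LINC00520 and AC003092.1. The first 3 of these had 0 reads in U251 Control and 7, 5 and 4 in U251 Bru, so that against 3 reads the ratio was at least 2.64-fold, 1.89-fold and 1.51-fold, and AC003092.1 had 4 and 23 reads. SFTA1P, named as a surfactant-associated pseudogene and next to CELF2, was better counted, with 75 and 211 reads in U251 (1.65, interval 1.28 to 2.07) and 0 and 1 in U87. The lowest ratios with support in reads were those of AC005150.1 (362 and 45 reads, -2.80, interval -3.31 to -2.38), LINC01579 (511 and 79, -2.34, interval -2.88 to -2.17) and LINC00639 (330 and 87, -1.65, interval -2.10 to -1.40). These genes were nearly silent in U87, where AC005150.1 and LINC00639 had 0 reads in both libraries and LINC01579 had 2 and 4. AL035446.1 (6 and 0 reads), AC093788.1 (11 and 1) and AP006621.2 (10 and 2) were the other low ratios.

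The other genes past the cutoff in U251 with 100 reads or more in the pair were mostly of unknown role. Higher with Bru were AC108488.1 (36 and 85 reads, 1.34), AC084033.3 (112 and 230, 1.20), AC093297.2 (108 and 223, 1.19), LINC00052 (107 and 209, 1.11) and AP002360.1 (48 and 87, 1.01). Lower were AC048341.2 (80 and 27, -1.36), AC026401.3 (247 and 90, -1.26), AP005233.2 (83 and 31, -1.22), AC083843.2 (338 and 122, -1.22) and AC020551.1 (229 and 97, -1.05), beside OLMALINC and MIR503HG. By gene boundaries, AC108488.1 and AC026401.3 overlap AC108488.2 and NDE1 on their own strand and AC084033.3 overlaps ATP23 on the other. Of the 32-base stretches of the longest transcript of each, 0.0% occurred in transcripts of other genes. Whether reads of the partners entered their counts was not tested. In U87 these 10 genes lay between -0.56 (AC026401.3) and 0.36 (AC084033.3), where AC020551.1 and LINC00052 had 0 reads in both libraries.

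In U87 alone, AC078788.2 and AC009435.1 had 0 reads in U87 Control and 33 and 41 in U87 Bru, at least 11.4-fold and 14.2-fold higher. AC009435.1 had 0 reads in both U251 libraries as well, so its reads came from 1 library. Nearly all reads of AC078788.2 were in U87 Bru too. Both genes reached the level through U87 Bru, so their rises and line differences are a description and not a test. LINC00520, AP006621.2 (4 and 14 reads) and AC087222.1 (2 and 8 reads) followed. The lowest ratios were those of AC067838.1 (9 and 1 reads), AC098614.4 (11 and 2), AC018752.1 (4 and 1), AC024560.3 (10 and 3) and AC008946.1 (16 and 5), all on fewer than 100 reads. The difference between the lines, U87 minus U251, was highest for AC009435.1 (5.39), AC078788.2 (3.73) and AP006621.2 (3.63) and lowest for AC003092.2 (-3.67), AJ011932.1 (-2.74) and AC005256.1 (-2.70).

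Since many lincRNAs start next to a protein-coding gene, each was set beside the nearest one. Of 344 genes, 178 were within 5 kb of a protein-coding gene or overlapped it, and 71 were head to head with it, that is on the opposite strand with starts within 1 kb. The line difference moved with this position. In the Control pair, 39.4% of the head-to-head genes passed the cutoff, 53.1% of those 5 to 50 kb away and 72.9% of the 85 over 50 kb away. For the 67 head-to-head genes with a neighbour at a mean FPKM of at least 1, the line ratios of lincRNA and neighbour had a Spearman rho of 0.47 in the Control pair and 0.57 in the Bru pair, and the Bru ratios had 0.21 in U251 and 0.23 in U87. For other positions the values were 0.51 and 0.38 between lines and 0.29 and 0.29 with Bru for genes 5 to 50 kb apart. Between lines they were 0.79 and 0.68 for overlap on 1 strand and 0.33 and 0.47 for overlap on opposite strands. Genes within 5 kb had 0.39 and 0.39, and genes over 50 kb apart had 0.35 and 0.33. Both members of a pair were measured in the same libraries. Of 19 head-to-head lincRNAs that differed between lines in both pairs, 11 higher and 8 lower in U87, the neighbour passed the cutoff in the same direction in 2 and 4, and in the opposite direction in 0, where 10.8% and 11.6% of all genes were higher and lower. For genes within 5 kb it was 7 of 13 higher and 3 of 9 lower, with 1 of the 9 opposite. For genes 5 to 50 kb apart it was 5 of 12 higher and 1 of 9 lower, with 1 of the 9 opposite. Over 50 kb apart it was 1 of 23 higher and 5 of 12 lower, with 1 of the 23 opposite.

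The head-to-head pairs in which lincRNA and neighbour passed together were these. SOX21-AS1 was at 4.8, 4.96, 0 and 0 FPKM in U251 Control, U251 Bru, U87 Control and U87 Bru, and SOX21, a neural transcription factor that starts 317 bases away, was at 12.4, 11.7, 0 and 0. ZNF667-AS1 was at 4.68, 6.96, 0 and 0 and its partner ZNF667 at 2.08, 2.71, 0 and 0.0065. RFX3-AS1 (5.8, 3.52, 0.39 and 0.405) with RFX3 (2.64, 2.52, 0.451 and 0.417), a regulator of cilia, and LINC01521 (2.13, 2.47, 0.598 and 0.503) with PATZ1 (8.89, 9.93, 2.06 and 1.99) showed the same order. These 4 lincRNAs were higher in both U251 libraries than in both U87 libraries. In the other direction, AP006621.3 (2.70, 1.27, 5.64 and 6.02) with GATD1 (13.7, 12.8, 31.1 and 31.9) and AC068473.5 (0.644, 1.09, 3.07 and 4.10) with CTDP1 (3.11, 2.69, 7.82 and 7.76) were higher in both U87 libraries. In the other 13 of 19 cases the neighbour did not pass in both pairs, as AC015912.3, which was higher in U87 by 2.72 and 2.86 while its partner TRIM25 differed by 0.38 and 0.39.

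**Figure D5:**
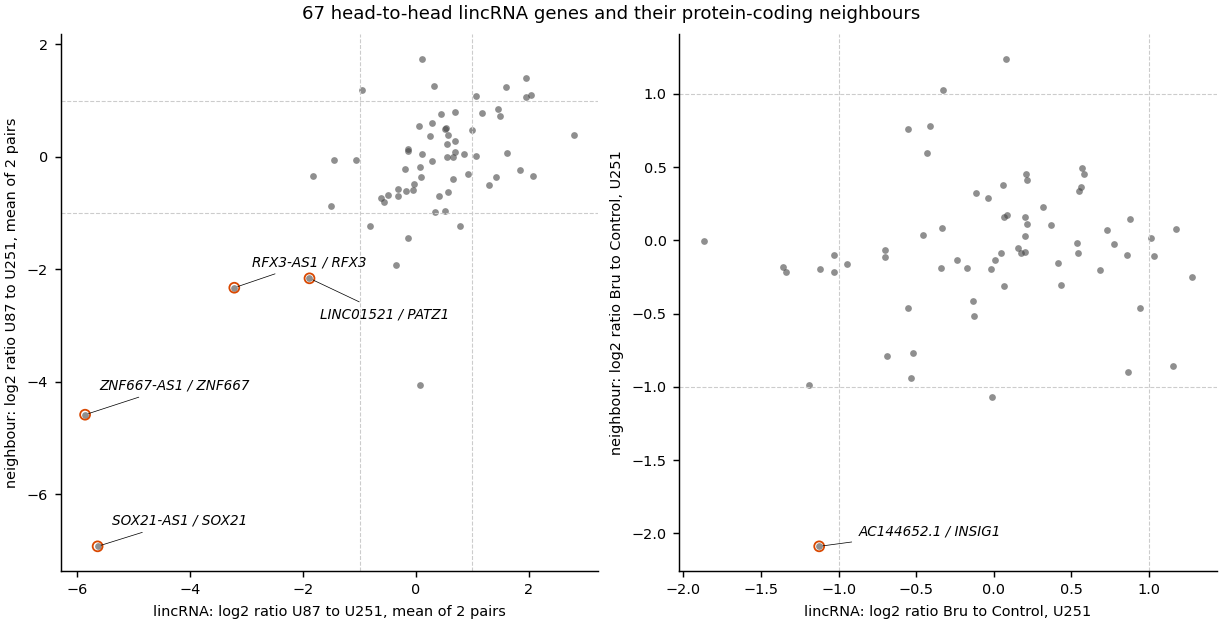
Log2 ratios of 67 head-to-head lincRNA genes (horizontal) and their protein-coding neighbours (vertical), for U87 to U251 as the mean of 2 pairs (left) and for Bru to Control in U251 (right), with dashed lines at -1 and 1. SOX21-AS1, ZNF667-AS1, RFX3-AS1 and LINC01521 lie with their neighbours at the lower left, and AC144652.1 with INSIG1 lies at the bottom of the right panel.

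Under Bru, 19 higher and 20 lower lincRNAs in U251 had an expressed neighbour within 50 kb, and the neighbour passed in the same direction in 0 and 2, where 3.36% and 5.44% of all genes were higher and lower. In U87 it was 0 of 6 and 0 of 9. OLMALINC (chr10:100373513-100454043) was at 3.16, 1.29, 0.67 and 0.459 FPKM in U251 Control, U251 Bru, U87 Control and U87 Bru, with 515, 185, 94 and 62 reads. It lies 8679 bases from SCD, the stearoyl-CoA desaturase, which was at 263, 47.6, 244 and 67.4 FPKM. OLMALINC was lower with Bru by -1.24 (interval -1.55 to -1.05) in U251 and -0.46 (-1.03 to -0.07) in U87, and SCD by -2.46 and -1.86. AC144652.1, head to head with INSIG1 at 235 bases, was at 1.35, 0.565, 3.14 and 2.26 FPKM with 46, 17, 92 and 64 reads, and INSIG1, a sterol sensor of the endoplasmic reticulum, at 45.9, 10.7, 59.6 and 22.7. AC144652.1 was lower by -1.13 and -0.45 and INSIG1 by -2.09 and -1.39, so the neighbour had the larger ratio in both lines. Of OLMALINC, 41.6% of the stretches occurred in other transcripts, and the part of this in its ratio was not tested.

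Members lying within 50 kb of each other formed 19 groups of 2. LINC01443 and LINC01444 on chromosome 18 (mean line ratios 5.49 and 7.98), AC079949.2 and AC079949.1 on chromosome 12 (5.28 and 6.57), AC034223.2 and AC010343.3 on chromosome 5 (5.36 and 5.80) and AC003092.2 and AC003092.1 on chromosome 7 (3.11 and 6.07) were all higher in U87, and PWAR6 and AC124312.2 of the imprinted Prader-Willi region on chromosome 15 were lower (-2.59 and -2.02). Members of other groups went apart, as LINC01547 (-1.83) and AP001505.1 (0.93), LINC02593 (-0.69) and AL645608.6 (1.04), and AC009237.15 (-1.0) and AC009237.14 (0.34). LINC01443 and LINC01444 overlap on opposite strands. By chromosome, the median line ratio of the lincRNA genes was 1.99 on chromosome 18 (10 genes, all genes tested 1.11), 1.60 on chromosome 8 (18 genes, 0.14), 1.27 on chromosome 12 (22 genes, 0.39), -1.92 on chromosome 9 (10 genes, 0.31) and -2.0 on chromosome 15 (9 genes, 0.08).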

How the data were processed

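For the 4 libraries, the authors gave gene-level values in FPKM, deposited with gene length and annotation. The submitters' processing notes name HISAT2 2.0.5, StringTie 1.3.3b, featureCounts 1.5.0-p3 and DESeq2 1.16.1 and the build hg18, whereas coordinates and exon lengths of all 58735 genes equal GENCODE 29 on GRCh38. Use of strand is not given in the sources used here. FPKM times gene length gave whole reads, within 0.001 reads, for 100% of values above 0. The library sizes implied by the FPKM were 17406238 to 20974002, which are not the totals of reads on genes. In U251 Control the implied size was below that total (20974002 against 21453561). Ratios were taken on log2(FPKM + 0.1), which understates the change of low genes, with a cutoff of 1, a floor of 3 reads and exact Clopper-Pearson 95% intervals, which cover counting error only. limma 3.58.1 fitted line and treatment over 12949 genes (mean FPKM of at least 1) with Benjamini-Hochberg adjustment. In simulated libraries read recovery was exact, and limma made more false calls than its threshold allows. Members, gene lists and tests were chosen with earlier results of these data known. Genes were named by level, largest ratios, cutoff in both lines and role lists, whereas PVT1, CRNDE, SFTA1P, LINC00639, the deeper U251 genes and the genes set beside a neighbour or in groups were chosen after their values were seen. Alternatives (pseudocount, level and read filters, TPM, overlap, shared sequence) are given in the closing section. Some items are not reported here. Python 3.11.15 was used.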

Additional observations from a re-analysis of the deposited data

Results flagged for a closer look

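The line difference of AC008608.2, which starts head to head with VDAC1, passed the cutoff in opposite directions in the pairs. It had 23, 5, 8 and 13 reads in U251 Control, U251 Bru, U87 Control and U87 Bru, and the log2 ratio of U87 to U251 was -1.23 in the Control pair and 1.34 in the Bru pair, a difference of 2.57. AP006621.2, with 10, 2, 4 and 14 reads, was lower with Bru in U251 (-1.89, counting interval -5.37 to 0.09) and higher in U87 (1.74, interval 0.19 to 3.92), a difference of 3.63, and its line ratio moved by the same 3.63 from -1.02 to 2.61. These differences were not tested, since each group has 1 library.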

How the results depend on the processing

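No paired analysis was possible because each group has 1 library, beyond the limma fit, which already compares Bru with Control within line, and no replicate could be left out. Of the counts recomputed under the alternatives, 85 stayed within 1.5 times the value reported and 55 moved. A turn of the split between higher and lower had no label of its own. With Bru in U251 the split turned from 32 higher and 36 lower to 6 and 5 at a mean FPKM of at least 5. It was 348 and 288 without a filter on level. In U87 it turned from 14 and 10 to 0 and 1 at a mean FPKM of at least 5. For the ratios of 54 named genes under 4 settings, 777 new values lay within the counting interval and 87 outside it. No ratio past the cutoff reversed, which a pseudocount cannot cause and the other settings, with small shifts, hardly could. With a pseudocount of 1, the genes past the cutoff were 3 higher and 10 lower with Bru in U251, 4 and 0 in U87, 47 lower in U87 in the Bru pair, and 0 and 0 in both lines together, and 14 and 11 differed between lines by above 1 and below -1. Higher genes were then 23.1% of calls in U251 (47.1% as reported) and 100% in U87 (58.3%). A pseudocount of 0.01, and likewise TPM, gave 4 lower in both lines, and TPM shifted the median of all genes in the Bru pair from -0.02 to -0.12. Where the FPKM had to average 5 or more (59 genes), the counts were 6 and 5 in U251, 0 and 1 in U87, 24 and 10 in the Control pair, 20 and 10 in the Bru pair, 18 and 9 in both pairs, 0 and 0 in both lines, and 33 and 13 for the limma line term. Without a filter, 3337 genes gave 348 and 288, 397 and 271, 770 and 493, 804 and 486, 446 and 237, and 59 and 20 in that order of comparisons. When the counting interval also had to exclude 0, U87 had 9 and 6 and both lines 3 and 1. Without genes overlapping a protein-coding gene (279 left), and without those sharing over 50% of their sequence (322 left, chosen after seeing the data), 1 was lower in both lines. With at least 100 reads, also chosen after seeing the data, the counts were 6 and 10, 2 and 0, 61 and 41, 50 and 39, 43 and 31, and 0 and 0. Depth limits the counts, as 90 genes had under 100 reads over the 4 libraries.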
